A study of Mus musculus with 24 samples.

Results

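White adipose tissue of hPER1S714G mice was compared with that of hPER1S714 control mice for how gene expression differed between ZT13 and ZT1. ZT counts hours from lights on, so ZT1 lies just after lights on and, in a cycle of equal light and dark, ZT13 just after lights off. The quantity described is the interaction of genotype and time, which is the S714G daily change (ZT13 minus ZT1) minus the control daily change. All 12 white adipose arrays of the series' 24 arrays entered, 3 in each of 4 groups: S714G at ZT13, S714G at ZT1, control at ZT13 and control at ZT1. All mice, controls included, carried human PER1 on a C57BL/6 background, were male and 2 months old, and had been on light-dark cycles for 10 days. The labels name the human gene and its variant, and do not say how it was introduced, which promoter drives it, or whether mouse Per1 was intact. They speak of independent repeats, and whether an array holds RNA of a single animal is not stated.

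The circadian clock is a feedback loop of transcription. The activators BMAL1 (encoded by Arntl), CLOCK and NPAS2 bind the E-box CACGTG and switch on the Per, Cry, Nr1d and Dbp genes. PER and CRY proteins then block the activators, while the REV-ERB receptors (Nr1d1, Nr1d2) repress Arntl and the ROR receptors activate it through AGGTCA sites. In mouse peripheral tissues, Arntl and the genes of its phase are highest near the end of the night, and the REV-ERB and Dbp genes during the day. In adipose tissue this loop runs beside daily rhythms of feeding, lipid storage and secreted proteins.

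Expression was measured on a Cy3 Agilent array with 55681 probes after spots of a probe were averaged. Values are log2 signals relative to the array's own 75th percentile, so that 0 is the level of that percentile and a step of 1 is a doubling. Between 52.0% and 71.2% of the spots of an adipose array were well above background. With 3 arrays a group, their number sets the precision. Adipocyte markers averaged between 5.58 and 6.13 on every array, all 8 of them well above background. Hepatocyte markers, all 10 on the array, varied far more between adipose arrays, with averages of 1.38 to 2.67 in S714G at ZT13, -1.84 to 3.61 in S714G at ZT1, 1.94 to 3.84 in control at ZT13 and 3.79 to 6.09 in control at ZT1. Epididymis markers were near background on all arrays. Of the brown adipocyte markers, Ucp1 was well above background on 1 of 12 arrays, Elovl3 on 5 and Dio2 on 7. Cidea, Cox7a1 and Ppargc1a were so on all 12.

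The arrays lay on 3 slides, and the slides follow the groups closely. Slide 1 held the 3 control ZT1 arrays and replicates 1 and 2 of S714G ZT1. Slide 2 held S714G ZT1 replicate 3 and the 3 control ZT13 arrays, and slide 3 held the 3 S714G ZT13 arrays. No slide held both times of a genotype, so slide and time cannot be told apart within a genotype, and no slide gives the interaction on its own. S714G ZT1 replicate 3 stood apart from its group, as slide 1 did from the other slides. Over 33819 probes well above background in a group, its signal correlated at 0.92 and 0.93 with its own replicates on slide 1. With the 6 arrays of both ZT13 groups it correlated at 0.97 to 0.98. All 35 pairs between slide 1 and slides 2 or 3 had a median of 0.93 (0.91 to 0.97). The 21 pairs within slides 2 and 3 had a median of 0.98. Results that rest on S714G ZT1 replicate 3 are therefore given with and without it. Without it, the ZT1 difference between genotypes lies within slide 1 alone.

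Of 55680 probes fitted, 12 probes (0.0216%) passed the interaction test at an adjusted p under 0.05 (limma, Benjamini-Hochberg over all probes). The S714G daily change exceeded the control one for 5 probes (0.00898%) and was below it for 7 probes (0.0126%). At an unadjusted p under 0.05 there were 2850 probes (5.12%), 1625 higher (2.92%) and 1225 lower (2.2%). Among the 33818 fitted probes well above background in a group, all 12 called probes (0.0355%) were found, and 1919 (5.67%) passed unadjusted. The 12 probes belong to 11 genes or transcripts, are well above background in at least 1 group, and have interactions of 2.82 to 7.72 in size. They include 5 probes of 4 clock genes (Arntl, Dbp with a pair of probes, Nr1d2 and Ciart). Beside them stand Asb12, Lonrf3, Xrcc3, Mthfd1l, an intergenic RNA on chromosome 10 and an unnamed transcript on chromosome 17. With quantile normalization 14 probes passed, 3 higher and 11 lower.

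By size of their daily changes, 8 of the 12 probes were reversed, meaning that both genotypes changed by at least 1 in log2 and in opposite directions. A further 3 were flattened, with a control change of at least 1 and a smaller S714G change, and 1 was gained, with a change of at least 1 in S714G alone. None of the 12 kept its direction at another size. For 6 of the 8 reversed probes both daily changes passed their own test on signals above background in S714G; the exceptions are Asb12, whose S714G change did not pass, and Ciart, which was not well above background on any S714G array.

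The probes that carry these results are 60 bases long. They are shown, from 5′ to 3′, for Arntl, which had the largest interaction, for the brighter Dbp probe, for the Nr1d2 probe with a doubtful position, and for the pair of features that have no gene symbol. Positions come from the array's own design, which uses mouse build mm9.
Arntl probe, chr7:120457261-120457320, plus strand: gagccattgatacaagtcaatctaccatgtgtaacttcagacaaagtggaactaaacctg
Dbp brighter probe, chr7:52965461-52965520, plus strand: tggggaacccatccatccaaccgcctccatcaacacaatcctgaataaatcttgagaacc
Nr1d2 probe, chr19:40271435-40271494, plus strand: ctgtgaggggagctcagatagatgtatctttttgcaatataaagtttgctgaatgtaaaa
Intergenic RNA probe, chr10:76115014-76115073, plus strand: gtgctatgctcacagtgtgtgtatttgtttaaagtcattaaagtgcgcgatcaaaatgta
Unnamed transcript probe, chr17:28660928-28660987, plus strand: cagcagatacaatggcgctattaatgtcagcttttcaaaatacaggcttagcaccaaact

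The control regions of the called genes were read from RefSeq (build GRCm38.p6), as 250 bases before to 50 after each start, for the 8 of 11 called genes or transcripts that matched by symbol. They were searched on both strands for the E-box CACGTG, for the REV-ERB and ROR core site AGGTCA and for the D-box TTATGTAA, and no matches overlapped. These letters occur in 7.15% (CACGTG), 16.3% (AGGTCA) and 0.938% (TTATGTAA) of the 32851 windows in the table. The 4 windows with a match are shown with it in capitals, because the letters are those of sites through which the clock loop is known to act. Whether clock proteins bind these matches was not tested. Counted from the start site, Ciart had 3 E-boxes, at -116, -58 and -44, and Lonrf3 had 1, at -45. Arntl had an AGGTCA at 31, in the window of the more downstream of its start sites, and Nr1d2 had an AGGTCA at -77. The windows of Dbp, Asb12, Xrcc3 and Mthfd1l, and that of the other Arntl start, held none of the searched letters.
Arntl, chr7:113207261-113207560, plus strand: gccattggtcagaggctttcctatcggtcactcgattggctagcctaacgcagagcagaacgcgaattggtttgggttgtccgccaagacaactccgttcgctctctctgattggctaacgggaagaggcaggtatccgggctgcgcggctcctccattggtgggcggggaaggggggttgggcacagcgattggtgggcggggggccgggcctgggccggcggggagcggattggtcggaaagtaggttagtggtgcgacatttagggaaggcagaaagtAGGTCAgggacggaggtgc
Nr1d2, chr14:18239057-18239356, minus strand: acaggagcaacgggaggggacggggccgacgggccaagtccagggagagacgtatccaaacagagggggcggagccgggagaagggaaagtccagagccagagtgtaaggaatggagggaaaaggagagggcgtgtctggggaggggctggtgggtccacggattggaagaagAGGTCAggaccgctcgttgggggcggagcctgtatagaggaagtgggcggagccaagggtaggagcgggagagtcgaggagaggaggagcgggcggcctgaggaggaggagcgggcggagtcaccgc
Ciart, chr3:95882179-95882478, minus strand: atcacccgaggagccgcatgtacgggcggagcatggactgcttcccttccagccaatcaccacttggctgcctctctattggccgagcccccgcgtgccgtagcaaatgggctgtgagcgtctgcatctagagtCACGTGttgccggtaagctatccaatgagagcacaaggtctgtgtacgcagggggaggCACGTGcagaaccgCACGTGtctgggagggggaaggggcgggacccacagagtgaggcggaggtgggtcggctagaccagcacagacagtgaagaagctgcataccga
Lonrf3, chrX:36328159-36328458, plus strand: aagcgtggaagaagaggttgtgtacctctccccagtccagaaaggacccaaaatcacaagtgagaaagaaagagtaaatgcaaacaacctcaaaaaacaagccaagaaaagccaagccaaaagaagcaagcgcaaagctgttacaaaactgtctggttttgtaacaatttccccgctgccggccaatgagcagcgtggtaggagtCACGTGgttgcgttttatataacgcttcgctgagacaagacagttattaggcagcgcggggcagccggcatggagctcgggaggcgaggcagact

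Arntl, the gene of the activator BMAL1, had the largest interaction of the 12. Its log2 signals were 1.15, 1.05 and 0.87 in S714G at ZT13 and -1.97, -2.49 and -1.55 in S714G at ZT1. In controls they were -3.90, -4.53 and -5.09 at ZT13 and 0.40, 0.03 and 0.13 at ZT1. Neither the times within a genotype nor the genotypes within a time overlapped, and the high time was ZT13 in S714G and ZT1 in controls. The S714G daily change was 3.03 (8.14-fold higher at ZT13, adjusted p = 0.0104) and the control one -4.69 (25.9-fold lower at ZT13, adjusted p = 0.00059). Their difference was 7.72 ± 0.48 (SE, limma adjusted p = 2.2e-04). S714G ZT1 replicate 3, on slide 2, lay with its own group and 2.95 above the mean of the control ZT13 arrays of the same slide. Without it the interaction was 7.94 (adjusted p = 7.8e-04). Arntl passed under all 24 alternatives tried.

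The REV-ERB and Dbp genes, which are driven by E-boxes, ran the other way. Dbp encodes a PAR bZIP transcription factor that acts through D-boxes. Its brighter probe gave 3.39, 3.09 and 3.55 in S714G at ZT13 and 5.89, 5.91 and 4.78 in S714G at ZT1. In controls it gave 5.20, 5.23 and 5.29 at ZT13 and 2.45, 3.58 and 3.04 at ZT1. The S714G ZT13 arrays thus lay in the range of the control ZT1 arrays, and both were below the other 6 arrays. Dbp fell 4.54-fold in S714G (adjusted p = 0.0263) and rose 4.63-fold in controls (adjusted p = 0.0162), with an interaction of -4.40 ± 0.52 (SE, limma adjusted p = 0.0254). The dimmer probe, on the same gene, had an interaction of -5.96 ± 0.58 (limma adjusted p = 0.0080).

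Nr1d2 encodes the repressor REV-ERB beta. Its signals were -1.77, -2.00 and -1.84 in S714G at ZT13 and 0.93, 0.80 and 0.47 in S714G at ZT1, against 0.62, 0.73 and 0.73 in controls at ZT13 and -1.93, -0.62 and -1.12 in controls at ZT1. The groups were again high and low at opposite times. The S714G change was -2.60, the control change 1.92 and the interaction -4.52 ± 0.45 (SE, limma adjusted p = 0.0080). The array design places this probe on chromosome 19, whereas RefSeq has the Nr1d2 start on chromosome 14 (the window above), and which locus it measures was not tested. A dimmer Nr1d2 probe, placed on chromosome 14, had an interaction of -5.84 ± 0.79 and missed the threshold (limma adjusted p = 0.0509). Its control change was 4.98 and its S714G change -0.86, so by size this probe was flattened and not reversed.

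Ciart, a repressor of the BMAL1 complex whose window has the 3 E-boxes above, was well above background on the 3 control ZT13 arrays alone. Its signals there were -2.92, -2.94 and -1.97. In controls it was at least 16.5-fold higher at ZT13 than at ZT1. No fold is given for S714G, where both times were below background, at -7.39, -6.82 and -6.92 at ZT13 and -5.31, -4.91 and -4.98 at ZT1. The fitted interaction of -6.02 ± 0.63 (SE, limma adjusted p = 0.0107) therefore shows that the control change is missing from S714G, and its sign in S714G rests on background signals. With normexp background correction it was -2.51 (adjusted p = 0.0525), and without S714G ZT1 replicate 3 it was -5.97 (adjusted p = 0.0576).

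Asb12 and Xrcc3 were reversed in the direction of Arntl. Asb12, an ankyrin repeat gene of the SOCS box family, gave -1.38, -0.95 and -1.47 in S714G at ZT13 and -1.93, -2.89 and -2.75 in S714G at ZT1. Its control signals were -3.62, -5.67 and -4.77 at ZT13 and -0.70, -0.72 and 0.24 at ZT1. The control fall was 19.6-fold (adjusted p = 0.0055), while the S714G change of 1.25 did not pass (adjusted p = 0.123). The interaction was 5.55 ± 0.70 (SE, limma adjusted p = 0.0405). Asb12 passed in 7 of 24 alternatives, and leaving out S714G ZT1 replicate 3 gave an interaction of 5.44 (adjusted p = 0.134).

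Xrcc3, a gene of DNA repair by homologous recombination, gave -1.04, -1.15 and -1.22 in S714G at ZT13 and -2.24, -2.53 and -2.26 in S714G at ZT1. In controls it gave -2.75, -3.40 and -3.19 at ZT13 and -1.16, -1.69 and -1.64 at ZT1. The groups did not overlap at either time, and the changes were smaller than those of the genes above. It rose 2.31-fold in S714G (adjusted p = 0.0459) and fell 3.07-fold in controls (adjusted p = 0.0158). The interaction of 2.82 ± 0.37 (SE, limma adjusted p = 0.0472) was the smallest of the 12 and passed in 8 of 24 alternatives. Without S714G ZT1 replicate 3 it was 2.86 (adjusted p = 0.106).

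**Figure D1:**
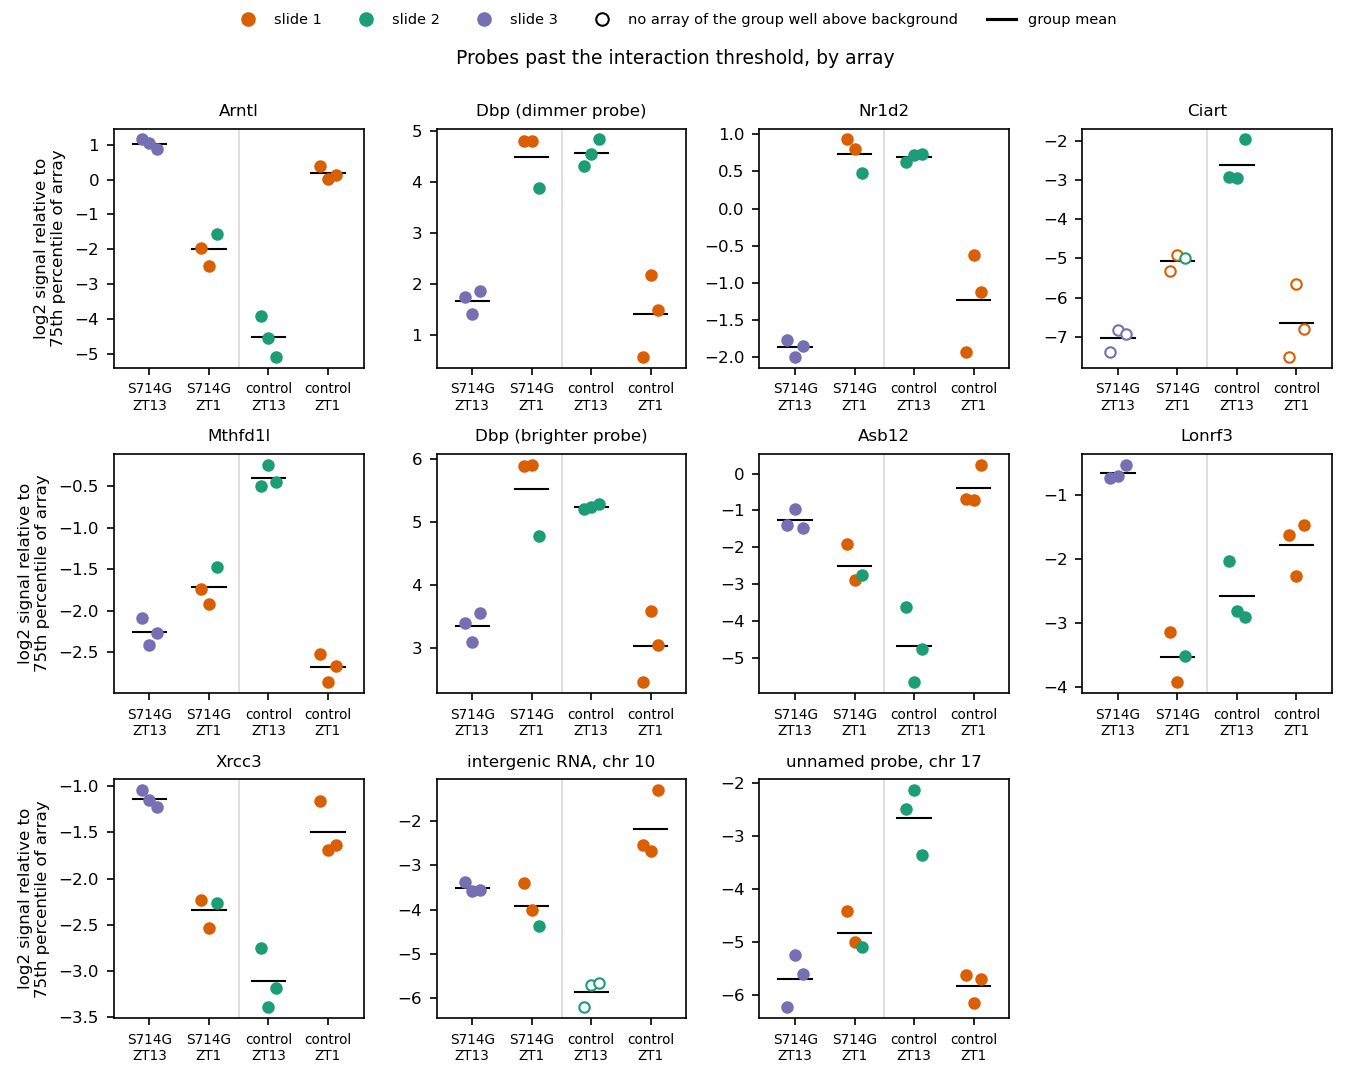
Log2 signal relative to the array's 75th percentile (vertical axes, each with its own range) of 11 of the 12 probes past the interaction threshold, for the 12 white adipose arrays by group (horizontal axes, 3 arrays per group). Points are arrays coloured by slide, open where no array of the group was well above background, and bars are group means. Arntl lies near 1 in S714G at ZT13 and below -3 in control at ZT13, and Ciart is open in 3 of its 4 groups.

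Mthfd1l was the flattened gene with a symbol. It encodes a mitochondrial enzyme of folate one-carbon metabolism that releases formate. Its signals were -2.09, -2.42 and -2.27 in S714G at ZT13 and -1.74, -1.92 and -1.48 in S714G at ZT1. In controls they were -0.50, -0.24 and -0.45 at ZT13 and -2.53, -2.86 and -2.67 at ZT1. The control rise was 4.89-fold (adjusted p = 0.0037) and the S714G change was -0.55 (adjusted p = 0.14), so the control ZT13 arrays stood above the other 9. The interaction was -2.84 ± 0.33 (SE, limma adjusted p = 0.0254), and a dimmer Mthfd1l probe gave -2.61 ± 0.56 (limma adjusted p = 0.4). Of the 16 folate and NAD genes on its list, Mthfd1l alone passed, and the list's median interaction was 0.09, against 0.02 over all probes.

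The other flattened features have no gene symbol. The intergenic RNA probe on chromosome 10 gave -3.38, -3.59 and -3.55 in S714G at ZT13 and -3.41, -4.00 and -4.36 in S714G at ZT1. In controls it gave -6.21, -5.71 and -5.65 at ZT13, where it was not well above background, and -2.54, -2.67 and -1.30 at ZT1. It was at least 12.9-fold lower at ZT13 in controls, and its interaction was 4.11 ± 0.54 (SE, limma adjusted p = 0.0484). Without S714G ZT1 replicate 3 it was 3.89 (adjusted p = 0.134). A pair of neighbouring probes of the same region gave 2.28 and 3.92 without passing (limma adjusted p = 0.0806 and 0.263). The former changed by -2.24 in controls and 0.05 in S714G. The latter, well above background on 4 arrays, changed by -1.98 in controls and 1.94 in S714G, which is reversed by size and not flattened.

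The unnamed transcript on chromosome 17 gave -6.24, -5.24 and -5.60 in S714G at ZT13 and -4.41, -5.00 and -5.10 in S714G at ZT1. In controls it gave -2.49, -2.13 and -3.36 at ZT13 and -5.63, -6.15 and -5.70 at ZT1. It was well above background on all 3 control ZT13 arrays and on 1 of 3 arrays in each other group, so the S714G values are close to background. The interaction of -4.02 ± 0.54 (SE, limma adjusted p = 0.0484) was -1.94 (adjusted p = 0.37) with normexp background correction and -4.16 (adjusted p = 0.134) without S714G ZT1 replicate 3.

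Lonrf3, a RING finger gene of the LON family with the single E-box shown above, had the gained pattern. Its signals were -0.75, -0.70 and -0.54 in S714G at ZT13 and -3.14, -3.92 and -3.51 in S714G at ZT1. In controls they were -2.04, -2.81 and -2.91 at ZT13 and -1.62, -2.27 and -1.48 at ZT1, with the times overlapping. Lonrf3 rose 7.27-fold in S714G (adjusted p = 0.0104), and the control change of -0.80 did not pass (adjusted p = 0.119). The interaction was 3.66 ± 0.46 (SE, limma adjusted p = 0.0405). Without S714G ZT1 replicate 3 it was 3.66 (adjusted p = 0.129). A dimmer Lonrf3 probe, well above background on 6 arrays, gave 4.19 ± 0.67 (limma adjusted p = 0.11). That probe changed by -1.61 in controls and 2.58 in S714G, which is reversed by size and not gained.

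Leaving out S714G ZT1 replicate 3 left 6 of the 12 probes past the threshold, among them those of Arntl at 7.94, Nr1d2 at -4.65 (adjusted p = 0.0187), Mthfd1l at -2.72 (adjusted p = 0.0425), and Dbp at -4.77 and -6.28 (adjusted p = 0.0103 for the brighter and the dimmer probe). Ciart, Asb12, Xrcc3, Lonrf3 and both features without a symbol lost their call. Over the 12 fits that each leave out 1 array, Arntl, Nr1d2 and the dimmer Dbp probe passed in 12, Ciart in 9, Mthfd1l in 3, the brighter Dbp probe and Lonrf3 in 2, Asb12 and both features without a symbol in 1, and Xrcc3 in 0. Over all 24 alternatives, Mthfd1l, the brighter Dbp probe and Lonrf3 each passed in 11. With slide as a random block (estimated correlation 0.285 within a slide), 3 probes passed, among them Arntl at 7.91 (adjusted p = 0.002) and the dimmer Dbp probe at -6.23 (adjusted p = 0.0496). A fit over all 24 arrays with slide as a fixed block was also made. Its step between slides 1 and 2 rests on adipose S714G ZT1 alone, as replicate 3 against replicates 1 and 2. Its step between slides 2 and 3 rests on control liver at ZT13, as 1 array against 2, and is applied to adipose. In that fit 24 probes passed. Arntl was then at 8.64, the brighter Dbp probe at -5.07, Nr1d2 at -5.19, Xrcc3 at 3.15 and Lonrf3 at 3.62, all past the threshold. Ciart (-6.25, adjusted p = 0.0508), Mthfd1l (-2.93, adjusted p = 0.099), Asb12 (4.82, adjusted p = 0.977), the chromosome 10 probe (3.63, adjusted p = 0.312) and the chromosome 17 probe (-4.67, adjusted p = 0.154) were not. No alternative changed the sign of any of the 12.

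**Figure D2:**
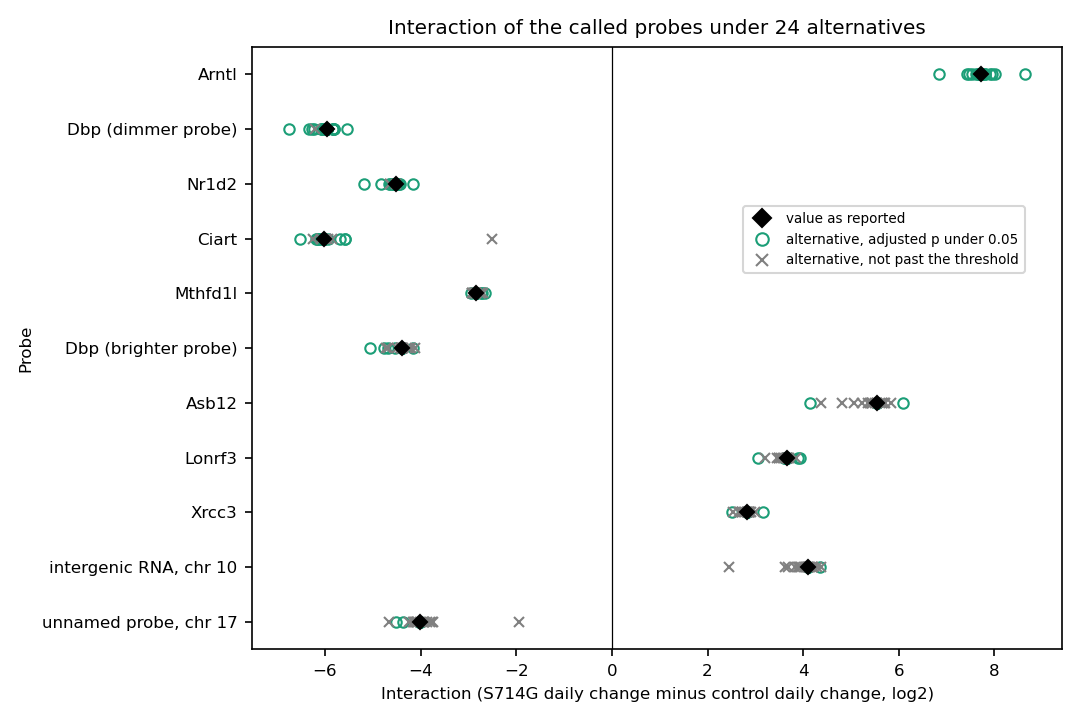
Interaction (log2, horizontal axis) of 11 of the 12 called probes (vertical axis) as reported (black diamonds) and under 24 alternatives, drawn as green circles where the adjusted p was under 0.05 and grey crosses where it was not. Arntl has circles only, and for Mthfd1l, the brighter Dbp probe, Asb12, Lonrf3, Xrcc3 and both features without a symbol most alternatives are crosses.

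The remaining core clock genes were next examined by role. Of the 23 core clock genes on the array, 4 passed the interaction test. At an unadjusted p under 0.05, 6 were positive and 10 negative, against 3.1% and 2.58% of the probes well above background. The lists were drawn up with earlier results of these data known, so these counts describe the genes and are no independent support. Among 5 genes of the late-night arm (Arntl, Clock, Npas2, Nfil3 and Cry1) all 5 were positive, with a median of 3.71. Among 8 genes of the daytime arm (Dbp, Tef and Hlf, Nr1d1 and Nr1d2, Per3, Usp2 and Ciart) all 8 were negative, with a median of -3.53.

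Npas2, which encodes a partner of BMAL1, missed the threshold narrowly. It gave -2.95, -2.62 and -3.15 in S714G at ZT13 and -3.95, -4.13 and -5.36 in S714G at ZT1, against -6.07, -4.73 and -7.42 in controls at ZT13 and -1.50, -1.87 and -1.39 in controls at ZT1. It was well above background on 1 of 3 control ZT13 arrays, so that its low level there is poorly measured. Its interaction was 6.06 ± 0.83 (SE, limma adjusted p = 0.0521), and it passed in 8 of 24 alternatives. With slide as a fixed block over 24 arrays it was 4.14 (adjusted p = 0.403).

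Clock itself, the usual partner of BMAL1, moved less: its interaction was 1.96 ± 0.37 (limma adjusted p = 0.249), with an S714G change of 1.02 (adjusted p = 0.0637) and a control change of -0.94 (adjusted p = 0.0461). Nfil3, a repressor at D-boxes, had an S714G change of 2.44 (adjusted p = 0.0303) and a control change of -1.27, for an interaction of 3.71 ± 0.63 (limma adjusted p = 0.154). Cry1, a repressor of the activators, was at least 6.29-fold higher at ZT13 in S714G, and its control change was 0.25. Its interaction of 2.49 did not pass (limma adjusted p = 0.728).

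Among the repressors, Nr1d1 (REV-ERB alpha) resembled a change in S714G alone. Its signals were -2.61, -2.61 and -2.37 in S714G at ZT13 and 1.05, -0.10 and 0.27 in S714G at ZT1, against -1.27, -0.82 and -0.72 in controls at ZT13 and -1.49, -0.89 and -1.24 in controls at ZT1. The control times overlapped and the S714G times did not. It fell 7.68-fold in S714G (adjusted p = 0.0104), and the interaction of -3.21 ± 0.46 missed the threshold (SE, limma adjusted p = 0.0703).

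Per2, Per3 and the brightest Per1 probe had a large control rise, and their S714G changes did not pass. Per2 gave -0.20, 0.33 and 0.81 in S714G at ZT13 and -1.31, -0.85 and -0.31 in S714G at ZT1, against 1.42, 1.56 and 1.33 in controls at ZT13 and -2.51, -3.23 and -2.84 in controls at ZT1. It rose 19.7-fold in controls (adjusted p = 0.0011), and the S714G change of 1.14 in the same direction did not pass (adjusted p = 0.0834). All S714G arrays lay between the control levels at the 2 times. The interaction was -3.16 ± 0.48 (SE, limma adjusted p = 0.0951), and -3.33 (adjusted p = 0.0405) with slide as a fixed block over 24 arrays.

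The brightest Per1 probe rose 7.82-fold in controls (adjusted p = 0.0037) and changed by 0.19 in S714G, an interaction of -2.77 ± 0.43 (limma adjusted p = 0.104). A dimmer Per1 probe went another way, with an S714G change of -2.16 and a control change of -0.49, for an interaction of -1.67 ± 0.78 (limma adjusted p = 0.956). Whether either probe also detects the human transcript was not tested. Per3 rose 17.6-fold in controls and changed by 0.29 in S714G, with an interaction of -3.85 ± 0.74 (limma adjusted p = 0.271).

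Tef and Hlf, the PAR bZIP relatives of Dbp, each rose in controls, 4.05-fold and 4.43-fold, and changed by -0.26 and -0.39 in S714G. Their interactions of -2.28 and -2.54 did not pass (limma adjusted p = 0.154 and 0.389). Usp2, a deubiquitinase, rose 4.98-fold in controls, and its S714G change, in the same direction, did not pass (adjusted p = 0.0882). Bhlhe40, a repressor at E-boxes, rose 8.59-fold in controls and changed by 1.53 in S714G, with an interaction of -1.57 (95% interval -3.54 to 0.40).

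For Rora, Cry2, the casein kinases Csnk1d and Csnk1e, and Bhlhe41, neither daily change nor the interaction passed. Rora had an interaction of -0.10 (95% interval -1.07 to 0.86), Csnk1d of -0.21 (-0.99 to 0.58) and Bhlhe41 of -0.16 (-1.29 to 0.97).

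**Figure D3:**
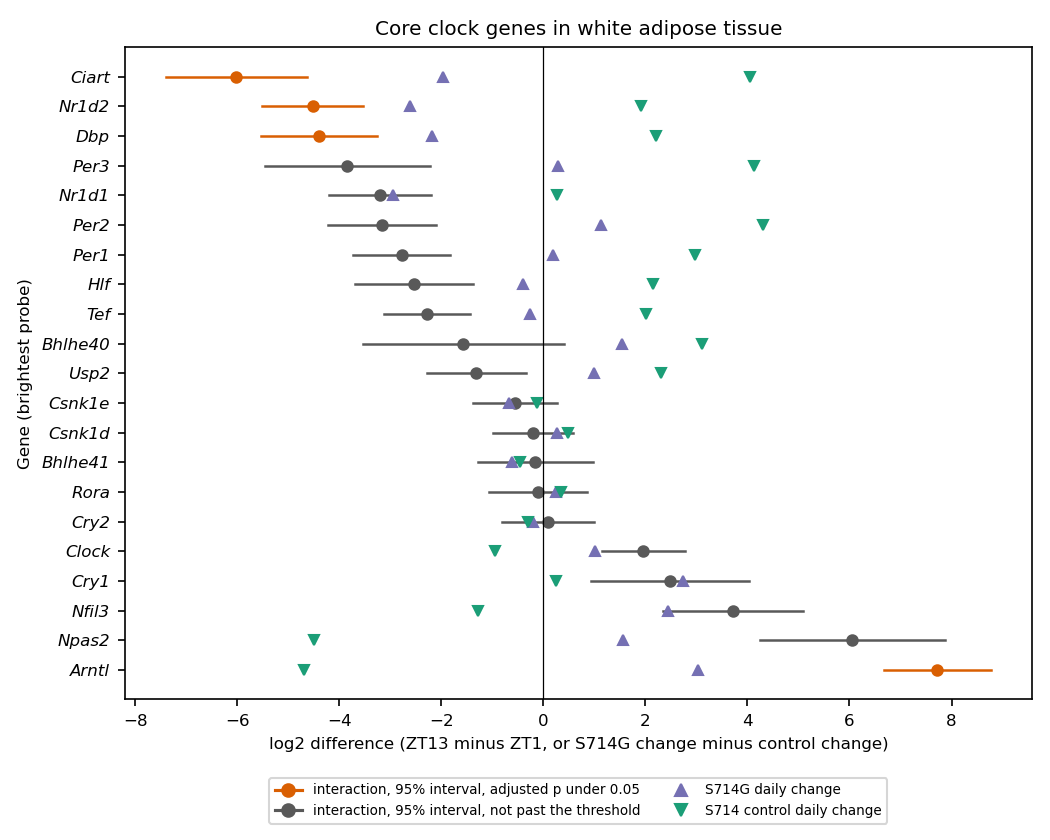
Log2 differences (horizontal axis) for 21 of the 23 core clock genes (vertical axis, brightest probe of each): the interaction with its 95% interval (circles and lines, orange where the adjusted p was under 0.05), the S714G daily change (upward triangles) and the control daily change (downward triangles). Arntl lies at the bottom with an interaction of 7.72, Ciart at the top with -6.02 (its S714G change rests on background signals), and the genes between Csnk1e and Cry2 lie near 0.

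Outside the clock, most named gene groups had no member past the interaction threshold. Adipokines and adipogenic regulators (15 genes) had a median of 0.07, with 1 member past that threshold. Lipolysis and lipid droplet genes (14 genes, median 0.07), glucose uptake and glycolysis genes (17 genes, 0.12), ribosome biogenesis genes (14 genes, 0.15) and oxidative phosphorylation genes (16 genes, 0.22) had none past either threshold. Fatty acid and triglyceride synthesis genes had a median of 0.38, with Elovl6, a fatty acid elongase, at 1.37 and Lpin1, a phosphatidate phosphatase, at -0.74, with limma adjusted p of 0.956 for Elovl6 and 0.945 for Lpin1. All these medians lie beside 0.02 over all probes and 0.10 over probes well above background.

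Some groups had medians further from that of all probes without any called member. Interferon-responsive genes had a median of 0.97, and all 13 members were positive, with Usp18, which removes ISG15 from proteins, at 1.84 (limma adjusted p = 0.854). Of the 13, 4 fell in controls, where 7.68% of all probes fell, and none in S714G, where 1.78% fell. The 17 cholesterol synthesis and uptake genes had a median of 0.65, with Cyp51, a sterol demethylase, at 1.33 (limma adjusted p = 0.956). Glucocorticoid-responsive genes had a median of -0.49, with 4 of 14 negative and 1 positive at an unadjusted p under 0.05, against 2.58% negative and 3.1% positive among probes well above background. The positive gene was Cdkn1a, which encodes the cell cycle inhibitor p21. It rose 4.54-fold in S714G (adjusted p = 0.0297), did not pass in controls (adjusted p = 0.101), and had an interaction of 3.18 ± 0.54 (limma adjusted p = 0.162).

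Wee1, a mitotic kinase gene driven by E-boxes, rose 5.22-fold in controls (adjusted p = 0.0068) and changed by 0.33 in S714G, with an interaction of -2.06 ± 0.40 (limma adjusted p = 0.302). Foxo1, a transcription factor that insulin signalling restrains, rose 2.77-fold in controls (adjusted p = 0.0158), with an S714G change of 0.17 and an interaction of -1.30 (limma adjusted p = 0.651). Adamts4, a protease of the extracellular matrix chosen after its values were seen, fell 8.30-fold in controls (adjusted p = 0.0069), with an S714G change of 0.34 and an interaction of 3.39 ± 0.52 (limma adjusted p = 0.0951). It passed in 5 of 24 alternatives.

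Elovl3, an elongase of very long fatty acids that brown fat and liver express, had a large but uncertain interaction. Its signals were -5.30, -3.94 and -6.06 in S714G at ZT13 and -5.98, -6.53 and -6.28 in S714G at ZT1, against -6.65, -8.02 and -5.49 in controls at ZT13 and -3.03, -0.20 and -2.47 in controls at ZT1. It was well above background on all 3 control ZT1 arrays, on 2 S714G ZT13 arrays and on no other. It was at least 28.2-fold lower at ZT13 in controls, and the interaction was 5.99 ± 1.13 (SE, limma adjusted p = 0.263). The highest Elovl3 array, control ZT1 replicate 2, was also the array with the highest hepatocyte markers, at an average of 6.09. The part of liver transcripts in this result was not tested.

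No cell type marker passed the interaction test. Of 10 macrophage markers, 8 fell at ZT13 in S714G, where 1.78% of all probes fell, and 2 fell in controls, where 7.68% of all probes fell. For the interaction 6 of 10 were negative at an unadjusted p under 0.05, against 2.58% of probes well above background, and the median was -0.99. Cd163, a scavenger receptor of resident macrophages, fell 7.27-fold in S714G (adjusted p = 0.0194), changed by -0.66 in controls and had an interaction of -2.21 ± 0.61 (limma adjusted p = 0.717). Lyz2, which encodes lysozyme, fell 3.38-fold in S714G and changed by -0.18 in controls, with an interaction of -1.58 (limma adjusted p = 0.823). The average of the 10 markers was 0.56 to 1.13 in S714G at ZT13 and 2.48 to 2.89 in S714G at ZT1, against 1.40 to 2.03 in controls at ZT13 and 2.35 to 2.50 in controls at ZT1. Fewer macrophages in a sample and less RNA per macrophage cannot be told apart in bulk tissue. The S714G ZT13 arrays, lowest for these markers, are also the only adipose arrays on slide 3, so group and slide cannot be told apart either.

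Hepatocyte markers had a median interaction of 1.90, and none of the 10 passed even the unadjusted threshold. Alb, which encodes serum albumin, ranged from -1.78 to 4.69 in S714G at ZT1 and from 4.82 to 6.87 in controls at ZT1. The part of these transcripts in the interaction of genes that liver also expresses, such as Arntl and Dbp, was not tested. S714G ZT1 replicates 1 and 2, the highest and lowest of their group for the hepatocyte markers, gave -1.97 and -2.49 for Arntl and 5.89 and 5.91 for the brighter Dbp probe. Fibroblast markers had a median of -0.08, neutrophil markers of -0.12, endothelial markers of 0.29, mesothelial markers of 0.28, T cell markers of 0.32, B cell markers of 0.48, brown adipocyte markers of 0.89 and adipocyte markers of 0.20.

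**Figure D4:**
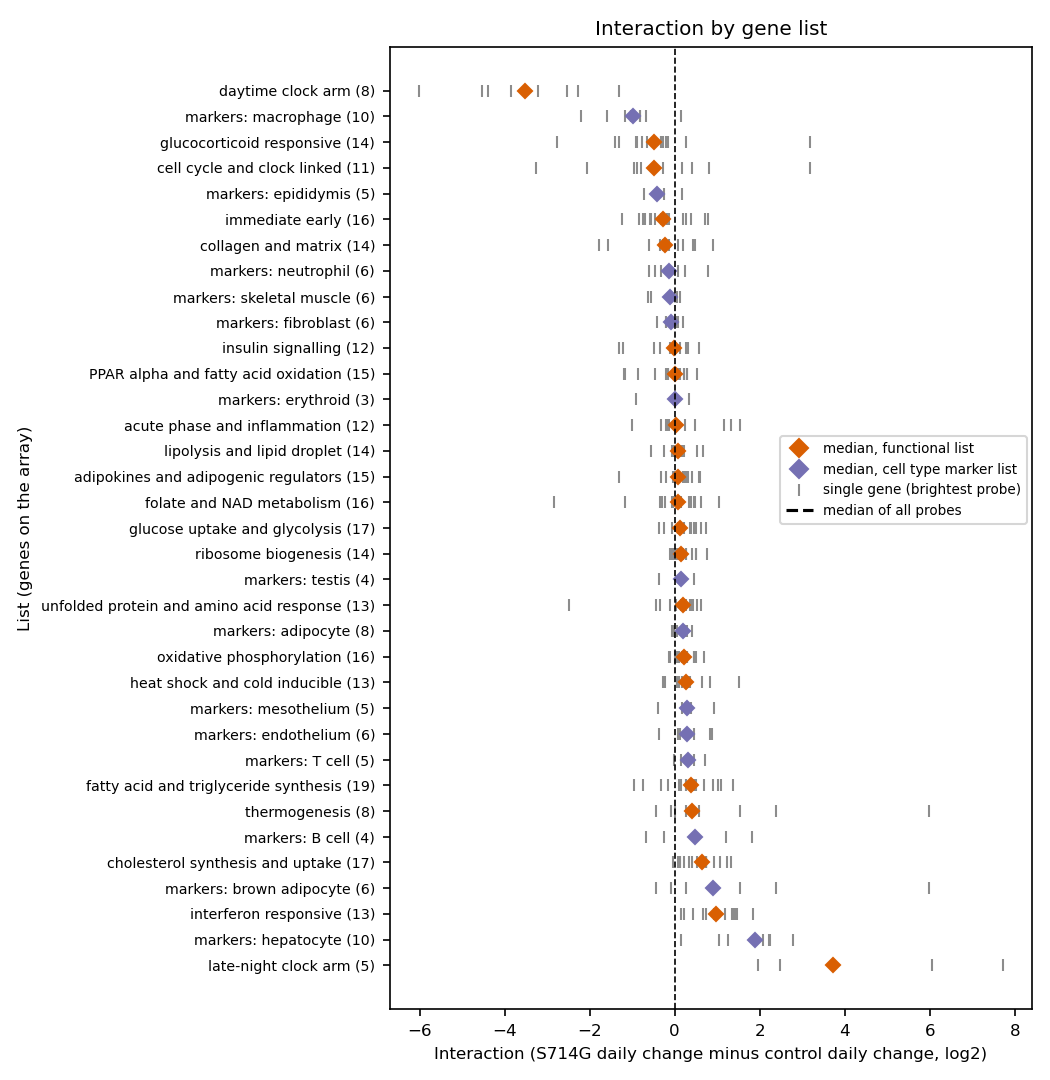
Interaction (log2, horizontal axis) of the genes of each list (vertical axis, number of genes on the array in brackets), with each gene as a grey tick (brightest probe) and the list's median as a diamond, orange for functional lists and purple for cell type markers. The dashed line is the median of all probes, 0.02. The daytime and late-night clock arms lie at the ends, at -3.53 and 3.71, and most other medians lie within 0.5 of the line.

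Over all probes, fewer daily changes passed at an adjusted p under 0.05 in S714G than in controls. At an unadjusted p under 0.05 the counts were closer, with 17748 probes in S714G and 18827 in controls. In S714G, 1076 probes (1.93%) passed the test of ZT13 against ZT1, 83 higher (0.149%) and 993 lower (1.78%). In controls 5599 probes (10.1%) passed, 1324 higher (2.38%) and 4275 lower (7.68%). These splits depend on the scaling, since the median over all probes was -0.50 in S714G and -0.56 in controls, and -0.04 in both with quantile normalization, where 95 rose and 166 fell in S714G and 1592 rose and 615 fell in controls. With slide as a random block, 1 probe passed in S714G and 5 in controls. Without S714G ZT1 replicate 3, 13990 probes passed in S714G and 13404 in controls. Without S714G ZT13 replicate 1, 4 passed in S714G, and without control ZT13 replicate 1, 56 passed in controls.

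Over 33818 probes well above background, the S714G and control daily changes correlated at r = 0.645, given as a description across probes, which are not independent. In the fit without slide terms the 2 changes share no array. Slides 1 and 2 hold arrays of both genotypes, and slide 3 holds S714G adipose arrays alone. With quantile normalization r was 0.647, and with slide as a fixed block over 24 arrays it was 0.419. In the fit with slide fixed, the S714G change sets ZT13 against replicate 3 of ZT1 alone. The same array enters the control change through the step between slides 1 and 2. Of 2898 such probes that passed in controls with a change of at least 1, 209 (7.21%) had the opposite sign in S714G and 28 were opposite by at least 1. A further 1099 (37.9%) had less than 50% of the control change in the same direction, and 1590 (54.9%) had more. The ratio of S714G to control change had a median of 0.532. Chosen instead for passing in S714G with a change of at least 1, 460 probes had the opposite sign in controls for 38 (8.26%), and the ratio of control to S714G change had a median of 0.577. Each ratio is taken over probes chosen on its denominator. With slide as a fixed block over 24 arrays, 47 such probes passed in controls, 7 (14.9%) of them opposite in S714G. By the same fit 41 passed in S714G with a change of at least 1, and 19 (46.3%) of these were opposite in controls. Both shares from this fit rest on S714G ZT1 replicate 3 in the way described above.

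**Figure D5:**
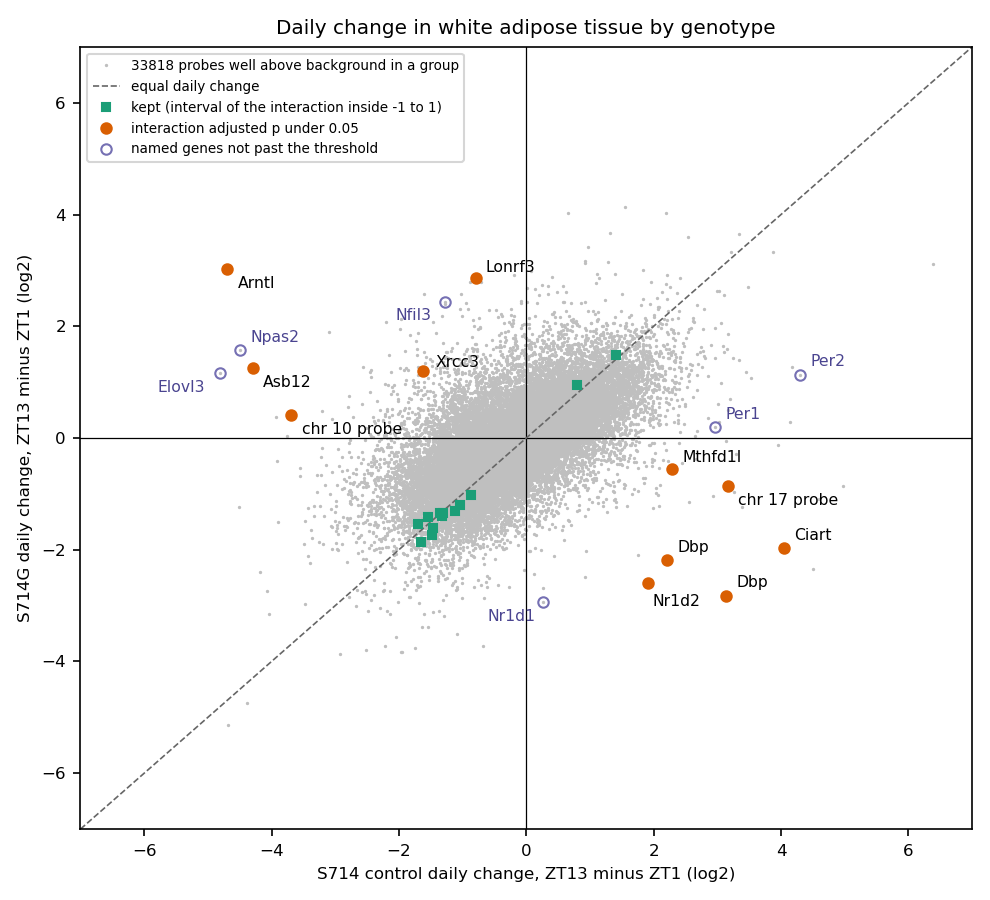
S714G daily change (vertical axis) against control daily change (horizontal axis), both as log2 ZT13 minus ZT1, for 33818 probes well above background in a group (grey). Probes past the interaction threshold (11 of the 12) are orange, named genes that missed it are open purple circles, probes with a kept change are green squares, and the dashed line marks equal change. Over the grey cloud both changes correlated at r = 0.645, which does not measure closeness to the dashed line. Arntl, at an S714G change of 3.03 and a control change of -4.69, lies far from that line. Nr1d2, at an S714G change of -2.60 and a control change of 1.92, lies far from it on the opposite side.

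For 556 probes (0.999%) both daily changes passed with the same sign, and for none of them did the interaction pass. Of these, 207 were well above background, 22 higher and 185 lower at ZT13. A stricter class of kept changes also asks that the 95% interval of the interaction lie inside -1 to 1, and 49 probes (0.088%) met it, 2 higher and 47 lower at ZT13. The interaction's SE had a median of 0.59 over all probes and 0.49 over probes well above background. At either SE the interval is wider than -1 to 1, whatever its centre. The share kept is thus limited by precision and does not measure how many daily changes were shared. Of the 49, 36 were never well above background on all arrays of a group. They include Ccr1l1 and intergenic probes with the largest mean changes, and no S714G fold is given for these, since both S714G times were below background. With quantile normalization 21 probes were kept, 8 of them shared with the 49, and with slide as a random block none was.

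The kept genes above background were mostly lower at ZT13. Fndc1, a fibronectin repeat gene, gave -2.04, -1.88 and -1.80 in S714G at ZT13 and 0.18, 0.15 and -0.46 in S714G at ZT1, against -1.82, -1.52 and -1.42 in controls at ZT13 and 0.02, 0.24 and -0.03 in controls at ZT1. It was high at ZT1 in both genotypes, which overlapped at each time. Its S714G change was -1.86 (adjusted p = 0.0163) and its control change -1.66 (adjusted p = 0.0153), and the interaction was -0.20 (95% interval -0.99 to 0.59). S714G ZT1 replicate 3 was 1.13 above the control ZT13 arrays of its own slide.

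Tnfaip2, a gene induced by tumour necrosis factor (chosen after its values were seen, as are the next 2), fell 2.89-fold in S714G and 3.25-fold in controls, with an interaction of 0.17 (-0.63 to 0.97). Tpd52 fell 2.67-fold in S714G and 2.92-fold in controls. Slc15a3, a histidine and peptide transporter of immune cells, fell 2.52-fold and 2.55-fold in S714G and controls.

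The kept genes that were higher at ZT13 were Gm2a, which encodes the GM2 ganglioside activator of lysosomes, and Zfp623, a zinc finger gene. Gm2a gave 3.43, 3.38 and 3.63 in S714G at ZT13 and 2.46, 2.58 and 2.53 in S714G at ZT1, against 3.24, 3.18 and 3.28 in controls at ZT13 and 2.55, 2.47 and 2.28 in controls at ZT1. It rose 1.94-fold in S714G (adjusted p = 0.0482) and 1.74-fold in controls (adjusted p = 0.042), with an interaction of 0.15 (-0.51 to 0.81). Zfp623 rose 2.80-fold in S714G and 2.67-fold in controls, with an interaction of 0.07 (-0.82 to 0.96).

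Retnlg, a resistin-like gene expressed by mouse neutrophils, had a far larger shared change. It gave -4.40, -4.72 and -4.93 in S714G at ZT13 and 0.69, -0.14 and 0.82 in S714G at ZT1, against -4.45, -4.78 and -5.24 in controls at ZT13 and -0.46, -0.22 and 0.26 in controls at ZT1. All 6 ZT13 arrays lay far below all 6 ZT1 arrays, and the genotypes overlapped at both times. Retnlg fell 35.3-fold in S714G (adjusted p = 4.4e-04) and 25.7-fold in controls (adjusted p = 5.9e-04). The interaction was -0.46 (95% interval -1.51 to 0.60), so the interval of this gene extends past the -1 to 1 limit of a kept change. S714G ZT1 replicate 3 was 5.64 above the control ZT13 arrays on its slide. The other 5 neutrophil markers were mixed. S100a9 fell in controls (-2.21, adjusted p = 0.0151), with an S714G change of -1.42 (adjusted p = 0.0535). S100a8 had an S714G change of -0.16 and a control change of 0.45, Camp one of 0.71 in S714G and 0.47 in controls, and Ly6g one of -0.58 in S714G and -0.66 in controls, none of them past the test. Ngp was well above background on no array.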

How the data were processed

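Spot intensities are those of the deposited scanner files, made with Agilent Feature Extraction 10.7.3.1 per the file headers, as 1-colour processed signals from which the scanner software had subtracted background. The authors' deposited value table, on a log2 scale, equals log2 of those signals minus each array's 75th percentile to within 0.01 for at least 99.65% of probes. Control spots and outlier spots (0.282% to 0.590% per adipose array) were left out, spots of a probe averaged, and log2 signals set relative to each array's 75th percentile, with no filter on dim probes. Probes were named by RefSeq accession (26863), current symbol (3752), synonym (623) or the files' name (24443).

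Group means over the 12 adipose arrays were fitted with limma 3.58.1 in R 4.3.3 (lmFit, eBayes, two-sided), with Benjamini-Hochberg adjustment over all probes and 0.05 as threshold. 1 probe could not be fitted for the interaction. The script was tested on simulated data. Summaries were made with Python 3.11.15 and pandas 2.3.3. Where a probe was well above background on no array of a group, a fold is a lower bound: each dim array was set to the lowest signal well above background on it, or to the probe's own signal where that was higher.

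Some genes that the rule names, a called probe among them, are not reported here, and counts include them. Genes named are the 23 core clock genes, the called genes (12 per direction at most, filled to 5 by lowest p), up to 6 kept genes per direction and up to 4 genes of lowest p per list (22 functional and 14 marker lists, 350 of 352 genes on the array). Genes stand for their brightest probe. The members and lists were chosen with earlier results of these data known. Alternatives were 12 changes of processing or model and leaving out each of 12 arrays. p-values measure the spread between arrays of a group, which may in part be technical. Same-numbered arrays did not deviate together (18 pairs, r from -0.51 to 0.31), so replicate numbers pair no samples.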

Additional observations from a re-analysis of the deposited data

Results flagged for a closer look

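The daily change differed between S714G and control by the interaction test for 12 probes. Of these, 11 are given here, with S714G minus control values, in log2, of 7.72 for Arntl, 5.55 for Asb12, 4.11 for the intergenic RNA on chromosome 10, 3.66 for Lonrf3 and 2.82 for Xrcc3. The values were -6.02 for Ciart, -5.96 and -4.40 for the dimmer and brighter Dbp probes, -4.52 for Nr1d2, -4.02 for the unnamed transcript on chromosome 17 and -2.84 for Mthfd1l. Groups of 3 arrays were not searched for outlying arrays.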

How the results depend on the processing

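Against 12 probes past the interaction threshold as reported, 27 passed with normexp, 31 after a filter on dim probes, 25 with a single probe per gene, 37 with a trended prior, 47 over 24 arrays, 24 over 24 arrays with slide as a fixed block, 3 with slide as a random block, 2 with the title prefix as covariate, and 4 to 15 without single arrays (4 without S714G ZT13 replicate 1 or control ZT1 replicate 3, 5 without S714G ZT13 replicate 2 or 3 or control ZT1 replicate 1, and 6 without S714G ZT1 replicate 1 or 3 or control ZT13 replicate 2). Control daily change calls (5599) came to 2207 with quantile normalization, 21153 with normexp, 3700 with a single probe per gene, 5 with slide random, 12473 over 24 arrays, 130 with slide fixed, 745 with the prefix, and 56 to 13404 without single arrays. S714G daily change calls (1076) came to 261 with quantile normalization, 495 with normexp, 549 after the filter, 480 with a single probe per gene, 707 with the trend, 1 with slide random, 5108 over 24 arrays, 117 with slide fixed, 127 with the prefix, and 4 to 13990 without single arrays. Kept probes (49) came to 21 with quantile normalization, 31 after the filter, 32 with a single probe per gene, 31 with the trend, 0 with slide random, 524 over 24 arrays, 1 with slide fixed, 0 with the prefix, and 0 to 1726 without single arrays. Of the 10 genes named for the interaction, 9 passed as reported, 2 with slide random, 2 with the prefix and 3 to 7 without single arrays. With the replicate block, 4 interaction calls, 816 control calls, 24 S714G calls, 0 kept probes and 3 named genes passed, and the same-numbered adipose arrays show no pairing between groups. Fewer tested probes or arrays account for part of these shifts by construction, and otherwise the cause was not tested. Signals near background limit Ciart, both features without a symbol, Npas2 and Elovl3.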
